A study of Mus musculus with 2 samples.

Results

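The genes described here are 37 heat shock proteins, co-chaperones and heat shock factors of the cytosol and of mitochondria, chosen by gene symbol, among 55536 gene entries in all. All 37 symbols were found. RNA came from the left cerebral cortex of 2 adult male mice of the F1 hybrid strain B6CASTF1/J, aged 8 to 10 months, whose labels number them animal 2 (replicate 1) and animal 4 (replicate 2). Both belong to 1 group, with no treatment named in the labels, so no condition was compared and no test between groups was possible. The 2 animals carry the same donor label, and that they are separate mice rests on their animal numbers. Each library came from 300 ng of total RNA, depleted of ribosomal RNA and spiked with ERCC controls, and the libraries held about 26926000 and 30144000 expected counts. Levels are given as TPM, a transcript abundance corrected for length, in replicate 1 and then replicate 2. Differences between the animals are given as the ratio of scaled counts, replicate 1 over replicate 2. The 95% interval after such a ratio is an exact binomial interval that covers counting error only, since reads without molecular identifiers are not independent molecules. With 1 library per animal these differences have no replicate check.

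Heat shock proteins of the HSP70 family bind exposed hydrophobic stretches of unfolded proteins in a cycle driven by ATP. J-domain proteins bring them their clients and HSP110 proteins exchange their nucleotide. HSP90 then matures many kinases and receptors, small heat shock proteins hold clients without ATP, and the ring-shaped chaperonins fold proteins inside a chamber. Heat shock factor HSF1 is held in check by chaperones in unstressed cells, and after heat or other proteotoxic stress it binds heat shock elements, which are alternating repeats of GAA and its complement, in the promoters of many of these genes.

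These repeats were searched in the RefSeq promoter windows (build GRCm38.p6, the patch series of mm10), each running from 250 bases before to 50 bases after an annotated start. The motif of 3 units was GAANNTTCNNGAA or TTCNNGAANNTTC, and the motif of 2 units was GAANNTTC or TTCNNGAA. Each 2-unit motif is its own reverse complement and the 3-unit motifs are complements of each other, so both strands were covered, and a 3-unit match always holds 2-unit matches. Of the 37 genes, 29 had a window. The 3-unit motif occurred in 5 of the 29, 17.2%, against 0.662% of the 27025 genes in the table. Hspd1 and Hspe1 are both among the 5 and share 1 stretch of DNA. The 2-unit motif occurred in 14 of the 29, 48.3%, against 17.0%. A match describes the letters and is not evidence of a bound site. Only exact units at this spacing were searched, so the lack of a match does not show that an element is absent. The first 3 sequences are the genes with 3 units before an annotated start. The others were picked, after their values were seen, from genes that were higher in replicate 1 and hold a match. Hspb8, Bag3, Dnajb4 and Cct2 also meet this description and are not printed. Chordc1 and Hsph1 hold 3 units at or after the start. All run 5′ to 3′ on the gene's strand, with the repeat units in capitals.
Hspe1: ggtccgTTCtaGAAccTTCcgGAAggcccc
Hspd1: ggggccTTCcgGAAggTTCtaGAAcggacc
Dnajb6: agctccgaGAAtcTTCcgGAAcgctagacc
Chordc1: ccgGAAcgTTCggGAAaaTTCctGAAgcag
Hsph1: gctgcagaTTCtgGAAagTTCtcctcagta
Hspb1: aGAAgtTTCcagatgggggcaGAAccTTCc
Dnaja1: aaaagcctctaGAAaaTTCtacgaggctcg
Hspa1a and Hspa1b: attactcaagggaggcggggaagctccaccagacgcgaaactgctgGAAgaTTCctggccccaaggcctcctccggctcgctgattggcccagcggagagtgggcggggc

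The first 2 lines are 1 stretch of DNA read from its opposite strands, chr1:55088053-55088082, between the Hspe1 start and the downstream start of Hspd1, the divergent mitochondrial chaperonin genes. It lies 95 to 66 bases before the Hspe1 start on the plus strand and 150 to 121 bases before the downstream Hspd1 start on the minus strand, within an annotated exon of a longer Hspd1 form. The window of the upstream Hspd1 start held no match. The Dnajb6 stretch (chr5:29735844-29735873, plus) also falls in an annotated exon. The Chordc1 stretch (chr9:18292260-18292289, plus) crosses the start and holds 5 units in a row. In Hsph1 the repeat (chr5:149636279-149636308, minus) lies after the start. Hspb1 (chr5:135887801-135887830, plus) has 2 separate pairs of units in a stretch with no annotated exon. Dnaja1 has a pair at chr4:40722333-40722362 on the plus strand, in a stretch that overlaps annotated exons of Dnaja1 and Gm6297. The Hspa1a stretch (chr17:34972197-34972306, minus) and the Hspa1b stretch (chr17:34959279-34959388, minus) are identical over all 110 bases and hold no annotated exon. Their 250 upstream bases match at 247 positions. Hspa8, Hspa9, Hspa13, Hsp90aa1, Hsp90ab1, Cryab, Dnajc5 and Hsf1 were not matched.

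**Figure D1:**
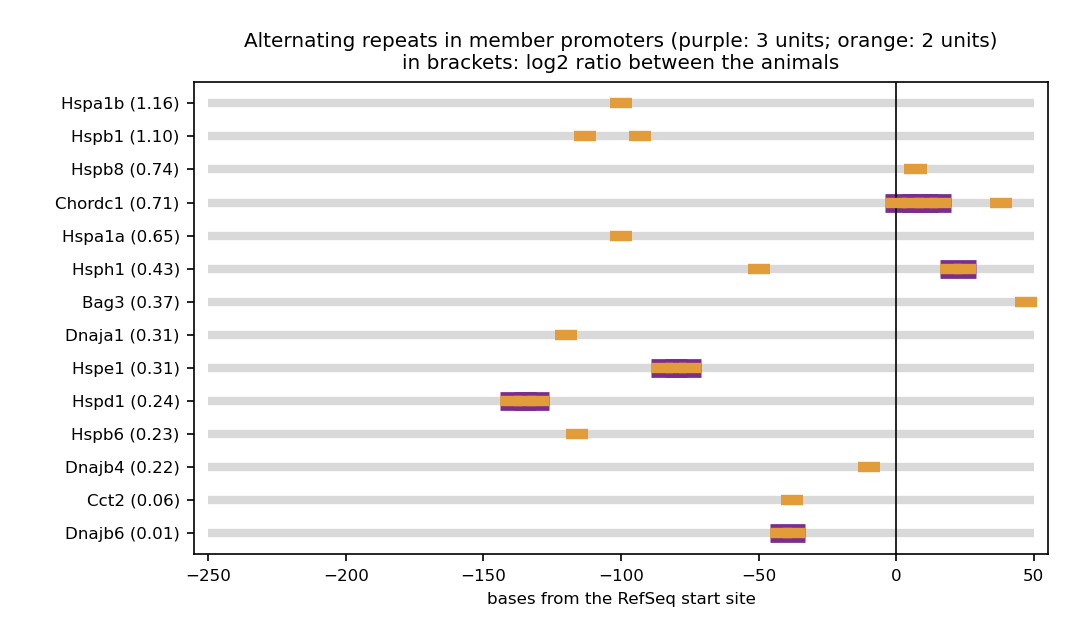
Positions of alternating repeats in the promoter windows of the 14 genes that hold a match, in bases from the RefSeq start (1 window per gene; purple, 3 units; orange, 2 units). Genes are ordered by the log2 ratio between the animals, in brackets, from Hspa1b at 1.16 to Dnajb6 at 0.01.

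The levels of the chaperone genes spanned a wide range, from Hspb6 at rank 11708 and 11918 of the 22028 protein-coding entries to Hspa8 at rank 15 and 38. Of the 37 genes, 31 (83.8%) reached at least 10 TPM in both animals, as did 36.9% of protein-coding entries. At least 50 TPM was reached by 21 (56.8%), against 9.76% of protein-coding entries. Their median was 76.4 TPM in replicate 1 and 69.9 TPM in replicate 2. Together they made up 0.916% and 0.782% of the TPM of protein-coding genes. Hspa8, Hsp90ab1 and Hsp90aa1 alone supplied 52.2% and 50.5% of the summed level, and they held the first 3 places in the same order in both animals. At the other end, 6 genes were under 10 TPM in at least 1 animal on the deposited scale: Hspa1a, Hspa1b, Hspb1, Hspb6, Hspb8 and Bag3. These 6 include both copies of the strongly heat-inducible HSP70, while the constitutive Hspa8 and Hsp90ab1 lay at the top. Inducible genes and small heat shock proteins were not all low. Hsp90aa1, the more inducible HSP90 form, had 511 and 476 TPM, and the small heat shock protein Cryab had 122 and 85.0 TPM.

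**Figure D2:**
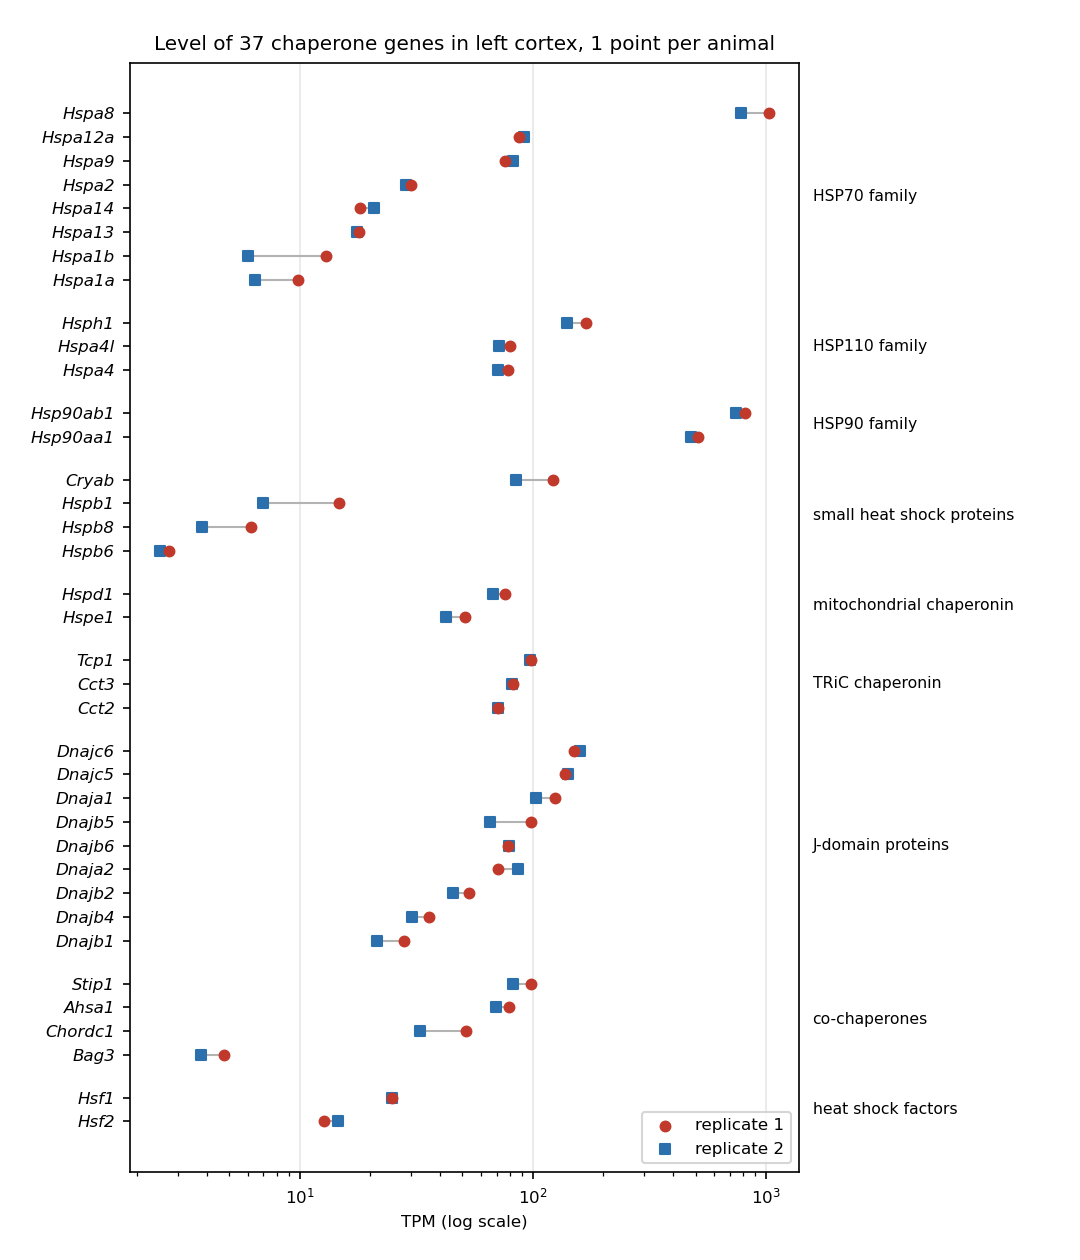
TPM of the 37 genes on a log scale in replicate 1 (red circles) and replicate 2 (blue squares), grouped by role. Hspa8 stood at 1031 and 782 TPM and Hspb6 at 2.76 and 2.52 TPM, and the longest connecting lines belong to Hspa1b, Hspb1, Hspa1a, Chordc1 and Hspb8.

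Most of the genes were higher in replicate 1, by small amounts. In whole tissue, fewer cells of a type and less RNA per cell cannot be told apart. Ratios were read only for genes that averaged 50 or more normalised counts, which 36 of the 37 did. Hspb6, with 41 and 39 expected counts, did not. Of the 36, 31 were higher in replicate 1, against 50.2% of the 14169 genes tested in the same way. By at least 25%, 11 of the 36 were higher in replicate 1, against 5.97% of all genes tested. None was at least 25% higher in replicate 2, against 7%. At least 2-fold higher in replicate 1 were 2, Hspa1b and Hspb1, against 0.55%. The median log2 ratio was 0.17, a 1.125-fold difference, and the median over all genes tested was 0.00. For scale, the median gene differed 1.08-fold between the animals in either direction.

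The 11 genes were Hspa8, Hspa1a, Hspa1b, Hsph1, Cryab, Hspb1, Hspb8, Dnajb5, Dnajb1, Chordc1 and Bag3. For 10 of them the whole counting interval lay above a 25% excess, Bag3 being the exception. A second quantification made by the authors straight from the reads also put all 11 at least 25% higher in replicate 1. The nearest gene below that size was Dnaja1 at 1.24. Over all 36, the counting interval lay wholly above 1 for 23 and wholly below 1 for Hspa12a, and it held 1 for the other 12. Intervals were not counted over all genes tested, so these numbers have no share to stand beside. They also depend on depth, since intervals narrow as counts rise.

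**Figure D3:**
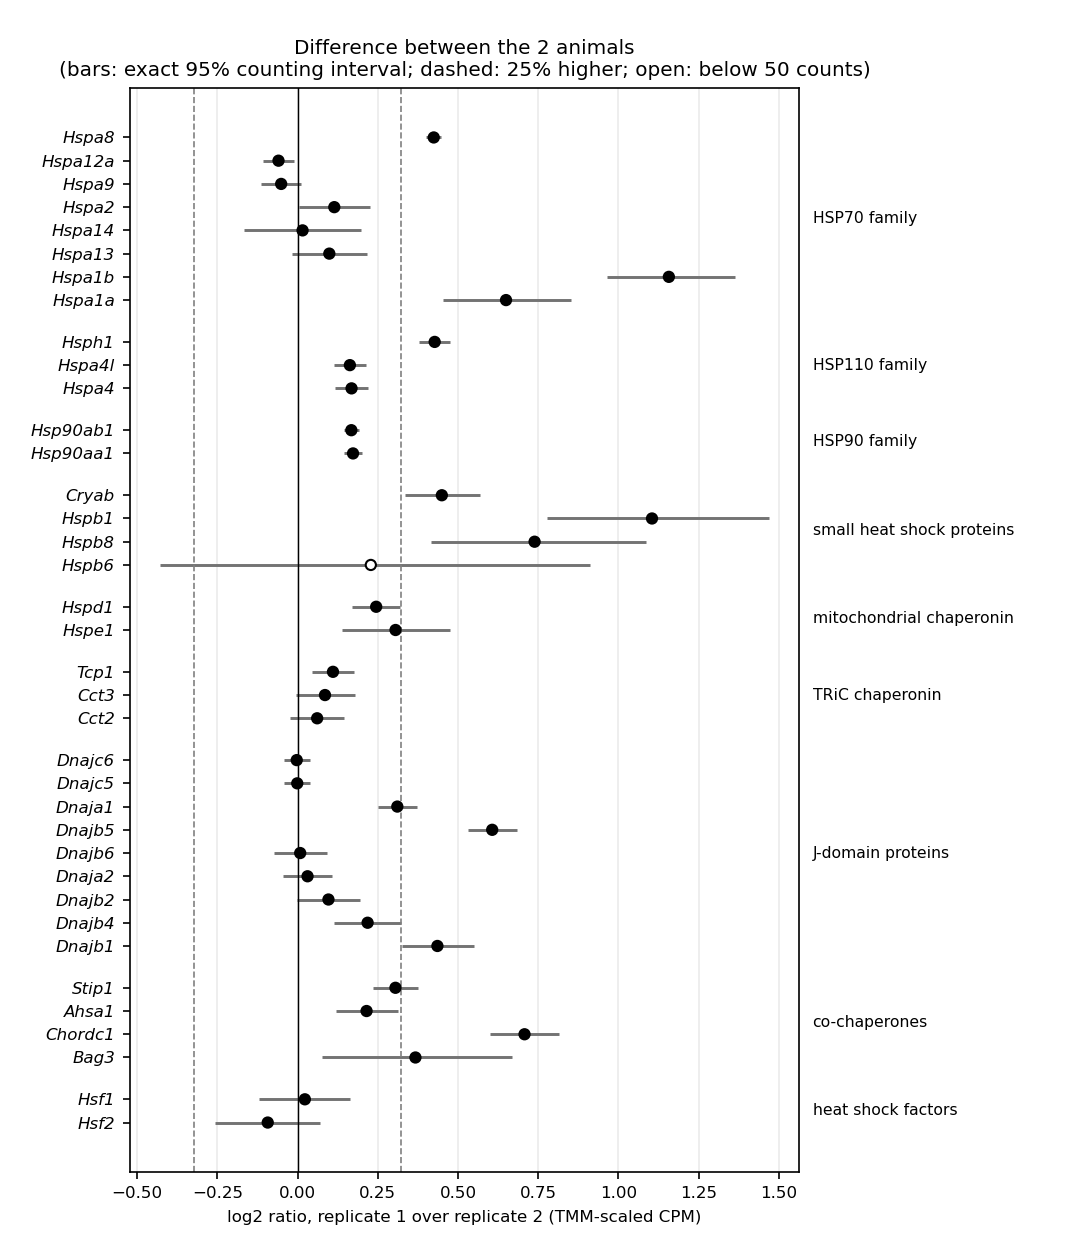
Log2 ratio of replicate 1 over replicate 2 for each gene, with exact 95% counting intervals and dashed lines where either animal is 25% higher. Hspa1b (1.16) and Hspb1 (1.10) lie farthest right, Hsf2 (-0.09) lies farthest left, and Hspb6 (open) had too few counts to be tested.

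In the HSP70 family, Hspa8 encodes the constitutive cytosolic HSC70, which also uncoats clathrin vesicles at synapses. It stood at 1031 and 782 TPM. Its ratio was 1.34 (95% interval 1.32 to 1.36), an interval far narrower than the difference itself. Hspa12a, a distant HSP70 relative known from brain, had 87.7 and 92.3 TPM and a ratio of 0.960 (0.928 to 0.992). Hspa9 encodes mortalin, the HSP70 of the mitochondrial matrix that pulls imported proteins inward. It had 76.4 and 82.7 TPM and a ratio of 0.965 (0.924 to 1.01). Hspa12a and Hspa9 were the family members lower in replicate 1, although spike-in scaling turned both to slightly higher, with log2 ratios of 0.01 and 0.02.

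Hspa2, an HSP70 best known from testis, reached 30.1 and 28.7 TPM, a ratio of 1.08. Hspa14, which works on the ribosome, had 18.15 and 20.96 TPM, lower in replicate 1, yet its scaled counts hardly differed, at a ratio of 1.01. Its exons overlap those of Gm45902 on the same strand. Hspa13 encodes an HSP70-like protein known from microsomes rather than from the cytosol, so it sits loosely among these genes. It had 17.9 and 17.6 TPM, a ratio of 1.07. These members differed by less than 1.1-fold between the animals.

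Hspa1a and Hspa1b encode the heat-inducible HSP70. They are neighbours on chromosome 17, and their coding sequences differ at 8 of 1923 aligned bases, with 3 bases in gaps, an identity of 99.6%. How the authors' counting split reads between the copies is therefore uncertain. Hspa1a was assigned 497 and 355 expected counts (9.85 and 6.47 TPM), a ratio of 1.57. Hspa1b was assigned 620 and 311 (13.04 and 6.01 TPM), a ratio of 2.23. Each copy was higher in replicate 1. Summed, the copies held 1117 and 666 counts, or 22.9 and 12.5 TPM, a ratio of 1.88 (1.71 to 2.08), which does not depend on the split. Even so, Hspa8 stood 45.0-fold and 62.7-fold above the summed inducible copies.

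All 3 HSP110 genes, whose products exchange the nucleotide of HSP70 and help it to dissolve aggregates, were higher in replicate 1. Hsph1 had 169 and 141 TPM and a ratio of 1.34 (1.30 to 1.39), close to that of Hspa8. Hspa4l had 79.7 and 71.7 TPM, a ratio of 1.12. Hspa4 had 78.2 and 70.9 TPM, also a ratio of 1.12. Within this family, then, the difference was wider for Hsph1 than for its relatives, and the counting intervals of Hspa4 (1.08 to 1.16) and Hsph1 did not overlap. These intervals leave out any spread between libraries or animals.

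The HSP90 genes differed alike. Hsp90ab1, the constitutive form, had 812 and 742 TPM and a ratio of 1.12 (1.11 to 1.14). Hsp90aa1, the more inducible form, had 511 and 476 TPM and a ratio of 1.13 (1.11 to 1.15). Both differed less than Hspa8 did, with counting intervals that did not overlap its own, though these leave out any spread between libraries or animals. The ratio of Hsp90ab1 to Hsp90aa1 in TPM was 1.57 ± 0.0197 (SD, n = 2).

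The small heat shock proteins, which hold unfolding clients in large oligomers, had the highest median ratio of the 9 roles, 1.67. All 3 with enough counts were at least 25% higher in replicate 1. Cryab, the alpha B crystallin that is abundant in glia, led the group with 122 and 85.0 TPM and a ratio of 1.37 (1.26 to 1.48). Hspb1, which encodes HSP25 in mice, had 14.8 and 7.0 TPM and a ratio of 2.15 (1.72 to 2.77). Hspb8, the partner of Bag3 in chaperone-assisted autophagy, had 6.19 and 3.81 TPM and a ratio of 1.67 (1.33 to 2.12). Their wide intervals follow from low counts, 209 and 108 for Hspb1 and 187 and 125 for Hspb8. Hspb6 was lowest of all 37 genes at 2.76 and 2.52 TPM. It overlaps Lin37 (18.03 and 15.54 TPM) and Proser3 on the opposite strand, so its low count is uncertain as well.

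The mitochondrial chaperonin is a barrel of HSP60, from Hspd1, capped by HSP10, from Hspe1. Hspd1 had 76.4 and 67.8 TPM and a ratio of 1.185 (1.125 to 1.248). Hspe1 had 51.3 and 42.6 TPM and a ratio of 1.24 (1.10 to 1.39). Both were higher in replicate 1 with overlapping intervals, and Hspd1 stood 1.54 ± 0.0753 (SD, n = 2) times above Hspe1. The genes overlap on opposite strands, so how reads were split between them is uncertain. Hspa9, the HSP70 of the same compartment, was instead 1.04-fold higher in replicate 2 (log2 ratio 0.02 the other way with spike-in scaling).

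TRiC, the cytosolic chaperonin that folds actin and tubulin, differed little. Tcp1 had 98.8 and 97.6 TPM, a ratio of 1.08. Cct3 had 82.2 and 81.2 TPM, a ratio of 1.06. Cct2 had 70.7 and 71.0 TPM, a ratio of 1.04, although its TPM was level. The 5 other TRiC subunits with enough counts lay in the same range, from 1.01 for Cct5 to 1.16 for Cct4, with Cct7 the most abundant at 107 and 97.8 TPM.

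J-domain proteins split into those that hardly differed and those that were higher in replicate 1. Dnajc6 encodes auxilin, which recruits HSC70 to clathrin coats in neurons. It had 151 and 159 TPM, a ratio of 0.998. Dnajc5 encodes cysteine string protein, a synaptic vesicle chaperone. It had 137 and 143 TPM, a ratio of 0.999. These synaptic partners of HSC70 were thus level between the animals, while Hspa8 itself was 1.34-fold higher in replicate 1.

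Dnajb5 showed the widest difference of the 9, with 98.9 and 65.7 TPM and a ratio of 1.52 (1.44 to 1.61). Dnajb1, the HSP40 that pairs with inducible HSP70, had 28.2 and 21.5 TPM and a ratio of 1.353 (1.252 to 1.463). Dnaja1, a farnesylated J-domain protein, had 125 and 103 TPM and a ratio of 1.24 (1.19 to 1.29). Its locus overlaps Smu1 on the opposite strand. Dnajb4 followed at 36.01 and 30.52 TPM, a ratio of 1.163 (1.082 to 1.251). The remaining members of this family were close to level. Dnajb2, a neuronal protein that sorts clients towards the proteasome, had 53.1 and 45.4 TPM, a ratio of 1.07. Dnajb6, which keeps polyglutamine proteins from aggregating, had 78.7 and 79.5 TPM, a ratio of 1.01. For Dnaja2 the scales disagreed: it had 71.3 and 86.8 TPM, lower in replicate 1, but its scaled counts gave a ratio of 1.022.

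The 4 co-chaperones were all higher in replicate 1. Stip1 encodes HOP, the bridge from HSP70 to HSP90, and had 98.2 and 82.1 TPM, a ratio of 1.24 (1.18 to 1.30). Ahsa1 encodes the activator of the HSP90 ATPase and had 79.4 and 69.9 TPM, a ratio of 1.16 (1.09 to 1.24). The differences of both lay below 25%. Chordc1, an HSP90 partner with zinc-binding CHORD domains, had 51.9 and 32.9 TPM and a ratio of 1.63 (1.52 to 1.76). Bag3, which links HSP70 to autophagy, had only 4.73 and 3.78 TPM, and its ratio of 1.29 had an interval of 1.05 to 1.59. Chordc1 and Bag3 thus differed in how well they were measured, with 1727 and 1187 counts for Chordc1 against 205 and 178 for Bag3.

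The heat shock factors were close to level between the animals. Hsf1, the master regulator of the heat shock response, had 24.9 and 24.8 TPM, a ratio of 1.016 (0.921 to 1.12). Hsf2, its relative with roles in development, had 12.7 and 14.6 TPM, a ratio of 0.938 (0.836 to 1.05). Both intervals held 1. HSF1 is controlled mostly at the level of the protein, which was not measured here.

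The annotation lists 229 transcripts for the 37 genes. The leading form by the authors' percentages was the same in both animals for 34 genes, and the same in both animals and both quantifications for 27. It held at least 90% in both animals for 14 genes, among them Hspa1a, Hspa1b, Hspb1, Bag3 and Stip1 at 100%. A second form reached at least 20% in both animals in 16 genes. The leading form was annotated as protein coding in 35 genes, and the exceptions were Cryab and the sparsely counted Hspb6. Percentages refer to TPM, in which a short form weighs more than it does in reads.

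For Cryab, a form that is not annotated as coding was assigned part of the gene's difference. Its leading form, Cryab-204, is a retained-intron transcript of 585 bases that held 59.0% and 41.9% of the gene, and 57.9% and 49.8% by the second quantification. Cryab-204 was assigned 614 and 331 counts, a ratio of 2.08. The 5 coding forms of Cryab were assigned 701 and 749 counts, a ratio of 1.05. By the second quantification the corresponding ratios were 1.82 and 1.19. Both quantifications thus placed most of the Cryab difference in Cryab-204, and the summed coding forms did not reach a 25% excess. Cryab was the exception among the 11 genes at least 25% higher in replicate 1: in the other 10 the summed coding forms reached that size, by both quantifications. For Hspa1a, Hspa1b, Hspb1, Dnajb1 and Bag3 this was fixed in advance, since all their annotated forms are coding. The other form of Hspb8 was assigned 0 counts by the first quantification. By the first quantification, where other forms held counts, coding-form ratios were 1.34 for Hspa8, 1.365 for Hsph1, 1.479 for Dnajb5 and 1.67 for Chordc1. The second form of Cryab, the coding Cryab-201, held 24.8% and 29.3%. Its ratio was 1.255 by the first quantification but 0.917 by the second. Cryab-205, also coding, had 188 and 269 counts by the first and 76.3 and 0.0985 by the second. How reads were split among the coding forms of Cryab is therefore uncertain.

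In Chordc1 the longest form, Chordc1-201 of 5789 bases, held most of the reads, 1339 and 955 counts, with a ratio of 1.57. The short coding form Chordc1-208 held 28.7% and 8.46% of the gene, and 25.03% and 6.55% by the second quantification, with 186 and 37.8 counts. Chordc1-208 was higher in replicate 1 by both quantifications, and the short coding form Chordc1-202, at 27.2% and 38.7%, led in replicate 2. Dnaja2-202, a retained-intron form of 507 bases, held 26.2% and 41.7% of its gene, or 134 and 282 counts. The second quantification gave 46.6% and 48.3%, so this difference between the animals was seen by the first quantification alone. Dnaja2-202 is short, so its reads weigh more in the gene's TPM than in its counts. Hspa8-201 held 49.7% and 51.5% of Hspa8 and Hspa8-202 held 34.2% and 33.5%. The share of Hspa8-202 was uncertain, since the second quantification gave 11.3% and 3.63%.

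Some other splits were alike in both animals. Dnajb6-203 held 77.7% and 78.0% and Dnajb6-201 held 14.4% and 15.4%, and the second quantification gave 75.8% and 76.8% for Dnajb6-203. Dnajb5-207, a processed transcript without an annotated reading frame, held 30.9% and 28.8% of Dnajb5. The mix of forms of Dnajb6 and Dnajb5 was thus nearly the same in both animals. Retained-intron forms made up 26.1% and 32.2% of Hsf1, and 24.03% and 30.32% by the second quantification, a smaller share in replicate 1 by both. In Cct3 the retained-intron form Cct3-203 held 38.9% and 40.4%, but 12.2% and 0.0767% by the second quantification. Hsp90ab1-206, a form annotated for nonsense-mediated decay, held 20.9% and 20.2%, but 1.64% and 2.37% by the second. These last forms are therefore uncertain.

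The leading form differed between animals or quantifications in 10 genes: Hspa2, Hspa4l, Hsph1, Hspb6, Tcp1, Dnaja1, Dnajb2, Dnajc5, Dnajc6 and Chordc1. In Hspa4l, Hspa4l-201 led in replicate 1 (39.7% and 30.8%) and Hspa4l-208 led in replicate 2 (32.1% and 34.4%). In Hspb6, the noncoding Hspb6-202 (42.4% and 22.2%) and Hspb6-204 (40.1% and 43.4%) changed places on very few counts. In the other 7 genes the animals agreed by the first quantification, and the second put another form first in at least 1 animal.

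Hsph1-211 held 47.5% and 40.6% of Hsph1 and the retained-intron Hsph1-208 held 21.7% and 25.2%, while the second quantification led with Hsph1-201 in replicate 1 and Hsph1-208 in replicate 2. Tcp1-209 held 67.7% and 61.8% and Tcp1-201 held 23.77% and 27.99%, and the second quantification put Tcp1-201 first. In Dnaja1 the forms Dnaja1-201 (48.5% and 48.1%) and Dnaja1-205 (27.6% and 29.4%) traded the lead in the same way. All the forms of Tcp1 and Dnaja1 named here are annotated as coding. Dnajb2 was spread over Dnajb2-210 (27.8% and 38.0%) and Dnajb2-207 (24.01% and 27.2%), with Dnajb2-208 first by the second quantification in replicate 1. Dnajc5-201 held 36.20% and 37.04%, Dnajc5-203 held 32.15% and 29.96% and Dnajc5-202 held 25.2% and 26.1%, and the second quantification put Dnajc5-203 first. Dnajc6-203 held 42.5% and 41.5% and Dnajc6-207 held 22.8% and 25.4%, but the second quantification led with Dnajc6-204 in replicate 1 and Dnajc6-207 in replicate 2. The leading forms of these genes are thus uncertain. Hspa2-202 held 100% and 91.8% by the first quantification, and the second put Hspa2-201 first in replicate 2, forms of 2526 and 2524 bases. Hspa13-201 led by both quantifications, with 73.9% and 69.3%, ahead of Hspa13-202 at 23.7% and 27.5%.

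**Figure D4:**
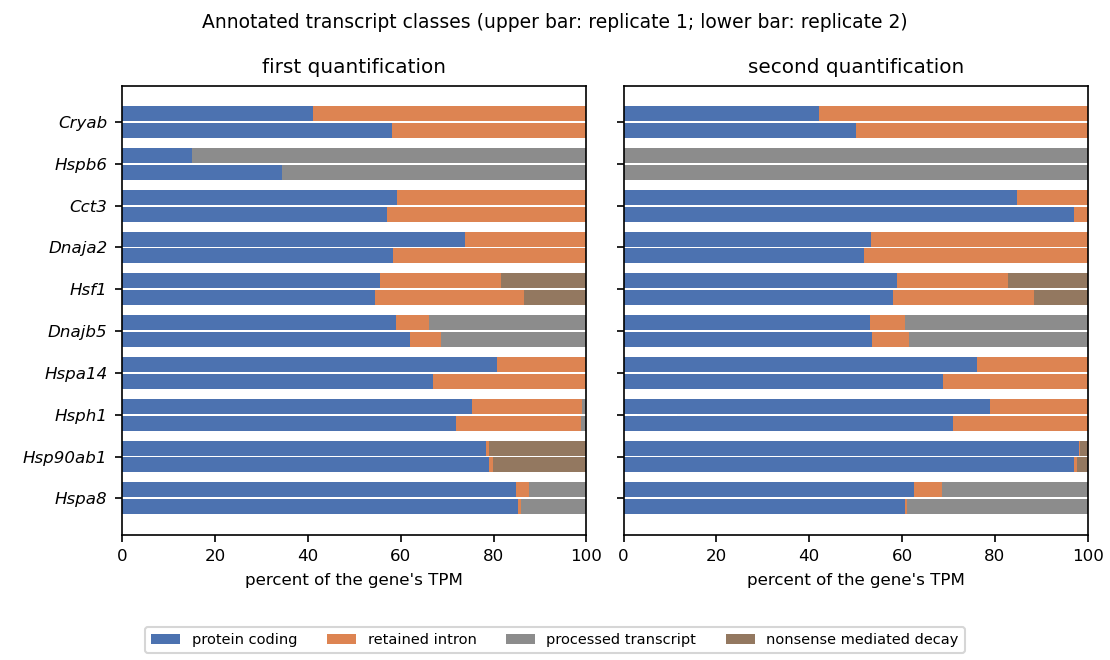
Share of each gene's TPM by annotated transcript class for 10 genes, in replicate 1 (upper bar) and replicate 2 (lower bar), by the first (left) and second (right) quantification. The retained-intron share of Cryab was 59.0% and 41.9% on the left and 57.9% and 49.8% on the right, while that of Cct3 shrank from left to right.

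Genes with and without an exact match in the promoter window were set side by side. Among the members with enough counts, the 5 with 3 units had a median log2 ratio of 0.31, and 2 of them, Chordc1 and Hsph1, were at least 25% higher in replicate 1. The 8 with only 2 units had a median of 0.51, and 5 of them, Hspa1a, Hspa1b, Hspb1, Hspb8 and Bag3, reached that size. The 15 with neither had a median of 0.11, and Dnajb1 and Dnajb5 reached it. Hspa1a and Hspa1b hold identical stretches, and Hspd1 and Hspe1 hold the same stretch of DNA, so the members of a class are not all independent. Over all genes tested with a window, the medians were 0.03 for the 58 with 3 units, 0.01 for the 1347 with 2 units and 0.00 for the 8852 with neither. The shares at least 25% higher in replicate 1 were 6.9%, 6.24% and 5.17%. These medians and shares include the members. Of the 4 genes with 3 units that reached this size, 2 were the members Chordc1 and Hsph1. Dnajb6, with 3 units, was level between the animals. Starts in use in this tissue were not measured.

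The rest of the chaperone network differed less between the animals. Of 71 further genes listed, 64 had enough counts, and their median log2 ratio was 0.02. Of these, 37 were higher in replicate 1, against 50.2% of all genes tested. By at least 25%, 5 of the 64 were higher in replicate 1, close to the 5.97% of all genes tested. They included the co-chaperones Bag2 (5.42 and 4.43 TPM, a ratio of 1.29) and Fkbp4 (61.5 and 50.1 TPM, 1.26). The others were the J-domain genes Dnajc21 (14.8 and 11.0 TPM, 1.35) and Dnaja4 (22.1 and 17.2 TPM, 1.32), and Hspa12b (5.30 and 3.99 TPM, 1.34). No network gene with enough counts was at least 25% higher in replicate 2, against 7% of all genes tested. Of 20 other HSP70 and HSP90 co-chaperones, 13 were higher in replicate 1 (median log2 ratio 0.05), Fkbp8 being the most abundant at 189 and 202 TPM. Tomm70a, a receptor for chaperone-bound proteins at the mitochondrial surface, was lowest of these at a ratio of 0.938. Of 16 other J-domain genes, 5 were higher in replicate 1 (median -0.05), with Dnajc7 the most abundant (116 and 112 TPM) and Dnajc8 the lowest ratio at 0.853. Prefoldin, which hands actin and tubulin to TRiC, had a median of 0.03 over 6 subunits, from Pfdn5, the most abundant (205 and 218 TPM, a ratio of 0.967), to Pfdn4 (10.8 and 9.82 TPM, 1.09). Mitochondrial protein quality control genes, with chaperones and proteases of the matrix and inner membrane, had a median of -0.01 over 13, from Dnajc19 at a ratio of 0.831 to Grpel2 at 1.21, with Yme1l1 the most abundant (41.9 and 41.7 TPM). Hsbp1, which binds heat shock factor trimers, was level at 146 and 145 TPM, and Hsf4 had 9.08 and 10.3 TPM, a ratio of 0.945. Hspb11, the most abundant of the other small heat shock and HSP70 genes, had 7.11 and 6.51 TPM, a ratio of 1.04.

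Chaperones of the endoplasmic reticulum, which serve secreted proteins, were the nearest comparison. Their list also holds genes of the unfolded protein response, the stress response of that compartment, such as Xbp1, Atf4, Ddit3 and Herpud1. Of the 20 genes listed, 19 were higher in replicate 1, against 50.2% of all genes tested. By at least 25%, 13 were higher, against 5.97%. Their median log2 ratio was 0.43, above the 0.17 of the cytosolic and mitochondrial genes. Hspa5, the HSP70 of that compartment, had 225 and 103 TPM, a ratio of 2.16, against 1.34 for Hspa8. Calr, a lectin chaperone, was the most abundant of the list at 231 and 173 TPM, a ratio of 1.34. The ratios ran from 0.888 for Sil1 to 2.87 for Sdf2l1. Of 31 proteasome subunits, 14 were higher in replicate 1, none differed by 25% and the median was -0.02. Their ratios ran from 0.822 for Psmb2 to 1.15 for Psmc5, and Psmb4 was the most abundant at 101.4 and 113.9 TPM. These lists were chosen with earlier results known and their differences from the chaperones were not tested.

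**Figure D5:**
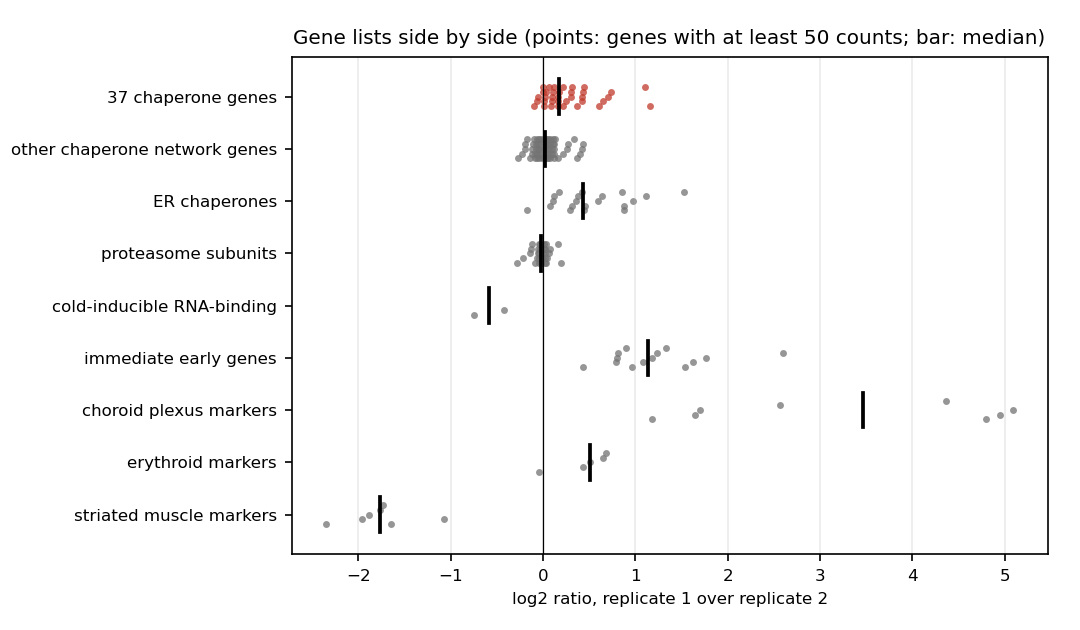
Log2 ratios of replicate 1 over replicate 2 for genes with enough counts in 9 lists, with black bars at the medians. The chaperones (red) have a median of 0.17, between the proteasome subunits (-0.02) and the list labelled ER chaperones (0.43). That list also holds genes of the unfolded protein response.

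Other genes also differed between the 2 libraries, and their part in the chaperone differences was not tested. Of 14 immediate early genes, all 14 were at least 25% higher in replicate 1 (median log2 ratio 1.14), from Egr3 at 70.7 and 58.6 TPM, a ratio of 1.35, to Arc at 163 and 27.8 TPM, a ratio of 6.05. Cold-inducible RNA-binding genes went the other way: Cirbp had 36.04 and 56.90 TPM and Rbm3 had 50.3 and 71.1 TPM, 1.67-fold and 1.33-fold higher in replicate 2. None of the 6 neuronal, 7 astrocyte and 7 microglial markers differed by 25%, and their median log2 ratios were -0.04, 0.04 and 0.07. Among 7 oligodendrocyte markers (median -0.01), Opalin was 1.96-fold higher in replicate 2, with 147 and 326 counts, and the other 6 differed by less than 25%. Among 6 endothelial markers (median 0.17), Itm2a was at least 25% higher in replicate 2, and among 6 mural markers (median -0.21) 3 were. Markers of blood and of tissues outside the cortex differed more. All 8 choroid plexus markers with enough counts were at least 2-fold higher in replicate 1, and the list summed to 271 and 108 TPM, of which Enpp2, a gene that oligodendrocytes also express, gave 225.2 and 101.1. Of 5 erythroid markers, 4 were at least 25% higher in replicate 1, and all 5 summed to 577 and 414 TPM. All 7 striated muscle markers with enough counts were at least 2-fold higher in replicate 2, and the whole list of 9 summed to 15.5 and 53.0 TPM. No marker of these 3 lists was at 0 in either animal.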

How the data were processed

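The authors deposited, for each library, gene and transcript values in 3 units, namely expected counts, TPM and FPKM, made from transcriptome alignments on mm10 (GENCODE M21), per the file headers and notes. Each transcript's percent of its gene is in the same deposited tables. A second set of transcript values, estimated counts and TPM that the authors made from the reads themselves, was summed by gene here. Which aligner and counter were used is not given in the sources used here. Strand use in counting is not stated either, so overlapping genes are uncertain. CAST alleles were not analysed separately.

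Library sizes left out spike-ins, tRNA entries and the 356 genes of ribosomal RNA, with expected counts rounded. Ratios are replicate 1 over replicate 2 of CPM after TMM scaling (edgeR 4.0.16, R 4.3.3, prior count 2) over the 14169 genes averaging 50 or more normalised counts. Ratios of transcript forms and of summed copies used no prior count, and forms needed 50 counts in both libraries. A difference of 1.25-fold (25%) or 2-fold is a size, not a test. No p-value is given, since 2 animals allow none below 0.5 in an exact sign-flip test. Intervals are exact 95% binomial intervals (scipy 1.17.1). Python 3.11.15, pandas 2.3.3 and numpy 2.4.6 handled the tables. The ratio calculation was tested on simulated data. Coding sequences of Hspa1a and Hspa1b were aligned globally.

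All 37 members are named. Lists set beside them give their most abundant gene and their largest ratio in each direction. Transcripts are named where the leading form differed or was not coding, or where a second form held at least 20% in both animals. Genes and forms named beyond that were chosen after their values were seen. Members, lists and this rule were chosen with earlier results of these data known. Alternatives were DESeq2 1.42.0 size factors, library totals, spike-ins, lower filters, a smaller prior count and log2(TPM + 1). Others were FPKM, TPM rescaled over other genes, the second quantification, and each animal alone.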

Additional observations from a re-analysis of the deposited data

How the results depend on the processing

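The counts of chaperone genes by direction and size stayed within 1.5 times of those reported under each alternative that was run. The number higher in replicate 1 ranged from 27 with log2(TPM + 1) to 35 with spike-in scaling. The number at least 25% higher in replicate 1 ranged from 9 with log2(TPM + 1) to 14 with spike-in scaling, and was 13 by the second quantification. No alternative put a gene at least 25% higher in replicate 2. The median log2 ratio ranged from 0.16 to 0.24, the highest being the spike-in value, where the median of all genes tested was 0.07. None of the 11 genes at least 25% higher in replicate 1 changed direction. Leaving out Hspa1a and Hspa1b, an alternative for the ratios that was chosen after seeing the data, left 29 higher in replicate 1 and 9 at least 25% higher. The median level of 73.1 TPM over both animals was 47.1 in FPKM, a different unit, and was 69.9 to 76.4 TPM with 1 animal left out. Levels by the second quantification are less certain between libraries: Hspa8 was listed there at 1337 and 1413 TPM, although its scaled counts gave a ratio of 1.34 or 1.35 by both. No paired analysis was possible because there is 1 group of 2 animals. Depth limits Hspb6, Bag3, Hspb8 and Hspb1 most, whose intervals are the widest.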
